A study of Rattus norvegicus with 12 samples.

Results

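Livers perfused in the cold without oxygen (HMP 1 h, hypothermic machine perfusion) were compared with livers kept in static cold storage (SCS 4 h). The comparison used 6 of the 12 livers of the series, 3 in each group, taken by their labels alone, and all genes of the table. The livers came from male Sprague Dawley rats, 6 to 8 weeks old, all heparinized, and no allele or drug separated the groups. Each liver stayed in the body for 30 min after cardiac arrest, the warm ischemia of donation after circulatory death (DCD). The SCS 4 h livers were then stored for 4 h in histidine-tryptophan-ketoglutarate (HTK) solution. The HMP 1 h livers were stored for 3 h and then perfused for 1 h at 4 °C with that solution through the portal vein, so that the cold time was equal on both sides. The other 6 livers entered the same model and are given beside the comparison: 3 had warm ischemia only (WI 30 min), and 3 had the schedule of HMP 1 h with an oxygenated perfusate (HOPE 1 h). Each library is whole tissue of 1 liver at the end of preservation. It shows the graft before any reperfusion, in an isolated organ without blood flow, and it mixes all cell types of the liver, so that fewer cells of a type and less RNA per cell cannot be told apart.

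Cold slows metabolism but does not stop it. A stored graft drains its ATP and builds up succinate, lactate and reduced cofactors, since the respiratory chain has no oxygen to pass electrons to. A pump that pushes solution through the vessels also washes out metabolites and cells and exposes the endothelium to flow, whether or not oxygen is supplied. An mRNA level in such a liver is the balance of synthesis and decay, both of which are slow in the cold.

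Total counts per liver were 15592012 to 17167688 in SCS 4 h and 16563806 to 17240977 in HMP 1 h. HMP liver 1 stood apart from the other 5 livers of the comparison. Its Pearson's r of log2 CPM (CPM being counts relative to the scaled library total; across genes, which are not independent replicates) with the other 5 livers was 0.937 to 0.946, where these had 0.957 to 0.971 among themselves. Transcripts of mitochondrial DNA took 18.7% of its counts, and 4.79% and 5.27% in HMP livers 2 and 3, against 5.07%, 5.21% and 6.02% in the SCS livers. The group means were 9.58% ± 7.88 (SD, n = 3) and 5.43% ± 0.514 (SD, n = 3), and an exact two-sided permutation test gave p = 0.8, where the smallest p that 3 against 3 livers allow is 0.1. By summed CPM, macrophage, endothelial and stellate markers were also highest in HMP liver 1 of the 6 livers. The bile duct sum was not, at 120 CPM in HMP liver 1 and 125 to 134 CPM in the SCS livers. A score of the bile duct markers, the mean of their centred log2 CPM, was however highest in HMP liver 1, at 0.88. This score was −0.02, 0.04 and −0.09 in the SCS livers and −0.09 and −0.58 in HMP livers 2 and 3. The 15 Kupffer cell and macrophage markers summed to 856 and 973 CPM in HMP livers 2 and 3 and to 1009 to 1072 CPM in the SCS livers. In HMP liver 1 they summed to 2758 CPM. The 18 sinusoidal endothelial markers summed to 1833 CPM in it and to 864 to 1183 CPM in the other 5 livers, and the 18 stellate cell and fibroblast markers to 3302 CPM and to 1320 to 1926 CPM. HOPE liver 3, outside this comparison, shared part of this profile, with 10.2% of counts from mitochondrial DNA and a bile duct score of 0.91. Its macrophage, endothelial and stellate markers summed to 1713, 2089 and 2298 CPM. None of these 51 markers was at 0 in any of the 6 livers. The labelled tissue matched its defining marker in all 6, with albumin (Alb) at 87947 to 154596 CPM. Values without HMP liver 1 are given beside those of all livers for the lists and for most named genes.

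**Figure D1:**
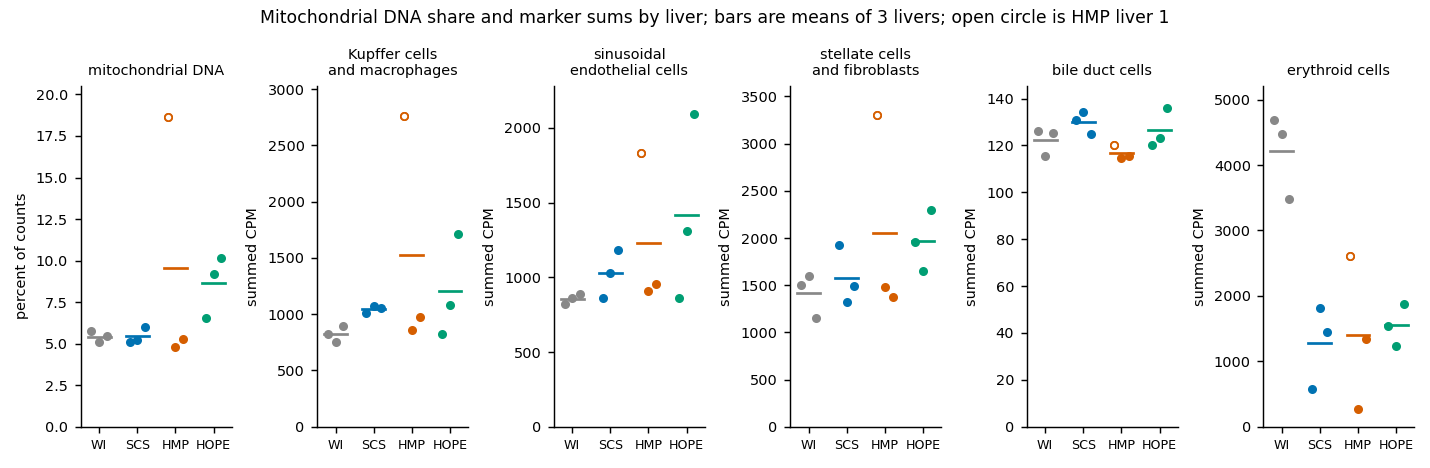
Share of counts from mitochondrial DNA (percent) and summed CPM of the markers of 5 cell types in the 12 livers; each point is 1 liver, bars are group means, and the open circle is HMP liver 1. HMP liver 1 is at 18.7% for mitochondrial DNA and has the highest macrophage and stellate sums of the 12 livers, while the bile duct sum, 115 to 120 CPM in HMP 1 h, is below all 3 SCS livers (125 to 134 CPM). The endothelial sum is highest in HOPE liver 3, at 2089 CPM.

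With all 3 livers on each side, no gene reached an adjusted p under 0.05 in edgeR's quasi-likelihood test: 0 of 13687 genes were called (0.0%), and the lowest adjusted p was 0.0545. An unadjusted p under 0.05 was reached by 812 genes that were higher in HMP 1 h (5.93% of those tested) and 1171 that were lower (8.56%), and DESeq2 called 438 (134 higher and 304 lower, 3.2%). The 3 HMP livers lay wholly above the 3 SCS livers for 7.29% of the genes and wholly below them for 10.6%. These shares over all tested genes are the background for the counts within lists below. An adjusted p under 0.1 was reached by 159 genes, 31 higher and 128 lower. The split between higher and lower genes depended on the scaling and on HMP liver 1. At an unadjusted p under 0.05 it was 882 higher and 1058 lower with RLE size factors, 955 and 983 without mitochondrial genes, and 891 and 890 without HMP liver 1. Scaled to total counts only it was 521 and 1630, and 22 genes were then called, 1 higher and 21 lower. The median log2 fold change of all tested genes was 0.04, and −0.03 on that other scale. So no single gene is reported here as changed between the groups with all 6 livers, and values are given for what follows.

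Without HMP liver 1, edgeR called 36 genes (0.259% of 13887 tested), 19 higher and 17 lower in HMP livers 2 and 3 than in the 3 SCS livers. Of these, 35 were tested with all livers, where 30 had an unadjusted p under 0.05 and 23 had groups that did not overlap. In 4 of them HMP liver 1 lay inside the range of the SCS livers. In others it lay beyond the SCS livers on the side away from HMP livers 2 and 3. Dmgdh had 224, 261 and 219 CPM in SCS livers 1 to 3 and 176, 503 and 412 CPM in HMP livers 1 to 3. In Paqr7, called lower, HMP liver 1 was at 186 CPM and the highest SCS liver at 182 CPM. DESeq2 called 23 of the 35 with all livers. A fit of only the 5 livers called 30 genes, 19 of them among the 36. Of the lists used here, peroxisomal and omega-oxidation held 3 of the calls, cholesterol synthesis 2, and complement and erythroid markers 1 each.

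**Figure D2:**
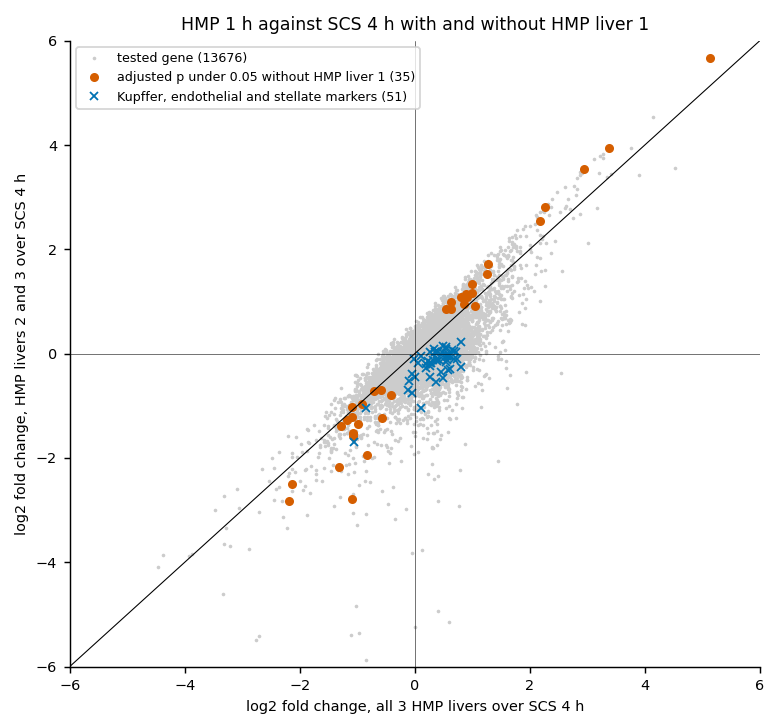
Log2 fold change of HMP 1 h over SCS 4 h with all 3 HMP livers (horizontal) against that of HMP livers 2 and 3 alone (vertical), 1 point a gene within ±6; the diagonal marks equal values. The orange genes, called without HMP liver 1, keep their sign on both axes, while most Kupffer, endothelial and stellate markers (blue crosses) are above 0 on the horizontal axis and near or below 0 on the vertical one.

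Adcy10, the bicarbonate-sensitive soluble adenylyl cyclase (chr13:83721300-83787018, Rnor_6.0 as for all gene positions), was among the genes nearest to a call. In the order of livers 1, 2 and 3, which holds for all values below, where a difference without another unit is on the log2 scale, it had 23.8, 27.1 and 26.4 CPM in the SCS livers and 9.65, 1.81 and 5.33 CPM in the HMP livers. Its log2 fold change was −2.20 (standard error 0.393, edgeR adjusted p = 0.0665), and −2.83 (standard error 0.333, edgeR adjusted p = 0.0154) without HMP liver 1. HMP liver 1 was here the HMP liver nearest to storage. The groups did not overlap, which, like the same sign without HMP liver 1, was a condition of its choice. Ptprs, a receptor tyrosine phosphatase (chr9:10603813-10645939), went the other way, with 59.99, 59.2 and 58.8 CPM in the SCS livers and 96.6, 110.1 and 115 CPM in the HMP livers. Its log2 fold change was 0.85 (standard error 0.138, edgeR adjusted p = 0.0611), and 0.94 (standard error 0.152, edgeR adjusted p = 0.041) without HMP liver 1, with narrow and separate groups. Comtd1, named for its methyltransferase domain (chr15:2631529-2634640), had 47.1, 39.9 and 38.8 CPM in the SCS livers and 21.2, 16.9 and 17.2 CPM in the HMP livers and a log2 fold change of −1.19 (standard error 0.1601, edgeR adjusted p = 0.0599, and −1.28 without HMP liver 1). Adcy10 was named by its size and Ptprs and Comtd1 were chosen after their values were seen, for low adjusted p and calls without HMP liver 1.

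Genes of mitochondrial fatty acid oxidation, which shortens acyl chains to acetyl-CoA and feeds the respiratory chain, were lower in HMP 1 h almost throughout. Of 21 listed genes 20 were tested, and 19 had a negative log2 fold change (median −0.55, against 0.04 for all genes). Of the 20, 18 lay wholly below the SCS livers, and 18 had an unadjusted p under 0.05 on the lower side and 1 on the higher. EdgeR called 0 of them and DESeq2 called 12, all lower. Without HMP liver 1 the median was −0.51, with 19 of 20 negative. A score per liver, for which the log2 CPM of each gene was centred on the 12 livers and then averaged over the list, was 0.35, 0.30 and 0.17 in the SCS livers and −0.34, −0.39 and −0.17 in the HMP livers.

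Hadha, the α subunit of the trifunctional protein that carries out the last steps of long-chain oxidation (chr6:27589657-27629175), had 678, 638 and 621 CPM in the SCS livers and 395, 378 and 412 CPM in the HMP livers. The difference on the log2 scale was −0.71 (standard error 0.123, edgeR adjusted p = 0.065, and −0.69 without HMP liver 1). Hadhb, its β subunit (chr6:27555412-27582995), had 557, 477 and 588 CPM in the SCS livers and 317, 251 and 316 CPM in the HMP livers, and a log2 fold change of −0.88 (standard error 0.179, edgeR adjusted p = 0.088, and −0.91 without HMP liver 1). Both subunits were lower in each HMP liver than in each SCS liver. Acadl, the long-chain acyl-CoA dehydrogenase (chr9:73833388-73871888), had 587, 611 and 515 CPM in the SCS livers and 296, 335 and 316 CPM in the HMP livers, a log2 fold change of −0.86 (standard error 0.162, edgeR adjusted p = 0.0808, and −0.79 without HMP liver 1). Eci1, an isomerase needed for unsaturated chains (chr10:13797562-13810913), had the widest difference of the 4 with 1053, 883 and 713 CPM in the SCS livers and 411, 227 and 293 CPM in the HMP livers, a log2 fold change of −1.51 (standard error 0.313, edgeR adjusted p = 0.088, and −1.75 without HMP liver 1). HMP liver 2 was lowest for Hadha, Hadhb and Eci1, as it was for the list score, and HMP liver 1 was lowest for Acadl. In all 4 genes every HMP liver was below every SCS liver. The exception of the list, Echs1 (an enoyl-CoA hydratase, singled out after its values were seen), was the 1 gene with an unadjusted p under 0.05 on the higher side. It was counted at only 2.24, 3.13 and 1.898 CPM in storage and reached 15.2 CPM in HMP liver 3 alone.

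Genes of oxidation outside the mitochondrion were mostly lower too. Peroxisomes shorten very long chains, and the microsomal Cyp4a enzymes start omega-oxidation. Of 18 tested genes 14 were negative and 4 positive (median −0.51), 9 lay wholly below the SCS livers and 1 wholly above, and 10 had an unadjusted p under 0.05 on the lower side. DESeq2 called 9, all lower. Without HMP liver 1 the median was −0.64, and edgeR then called 3: Cyp4a1, Abcd3 and Acot4. Cyp4a1, a fatty acid omega-hydroxylase and a textbook target of the nuclear receptor PPARα (chr5:134492756-134507154), had 1069, 970.0 and 1095 CPM in the SCS livers and 499.6, 374 and 418 CPM in the HMP livers. The log2 fold change was −1.28 (standard error 0.212, edgeR adjusted p = 0.0617), and −1.38 (standard error 0.231, edgeR adjusted p = 0.0444) without HMP liver 1. Every HMP liver was far below the lowest SCS liver. Abcd3, which carries acyl-CoA into the peroxisome (chr2:225335718-225389120), had 296, 290.1 and 288 CPM in the SCS livers and 187, 177 and 171 CPM in the HMP livers, a log2 fold change of −0.71 (standard error 0.115, edgeR adjusted p = 0.0611, and −0.72 without HMP liver 1). Acaa1a, the peroxisomal thiolase (chr8:128027958-128036236), had 653, 589 and 559 CPM in the SCS livers and 334, 336 and 284 CPM in the HMP livers, a log2 fold change of −0.92 (standard error 0.167, edgeR adjusted p = 0.0668, and −0.93 without HMP liver 1). Neither pair of groups overlapped, and Abcd3 varied least within the groups. Acot4, a peroxisomal thioesterase described because of that call, had 138, 101 and 101 CPM in the SCS livers and 85.6, 36.5 and 38.9 CPM in the HMP livers, and its log2 fold change moved from −1.08 to −1.57 without HMP liver 1. Acot1, a cytosolic thioesterase (chr6:107485249-107493798), was among the largest differences, with 62.6, 14.8 and 27.4 CPM in the SCS livers and 7.43, 1.062 and 1.78 CPM in the HMP livers and a log2 fold change of −3.33 (standard error 0.853, edgeR adjusted p = 0.119, and −4.60 without HMP liver 1). It has close copies beside it on chromosome 6, so reads may be split between them. Vnn1, a pantetheinase that PPARα is known to induce (chr1:22614783-22625204), had 171, 188 and 228 CPM in the SCS livers and 84.1, 29.3 and 68.8 CPM in the HMP livers and a log2 fold change of −1.69 (standard error 0.345, edgeR adjusted p = 0.088, and −1.98 without HMP liver 1).

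Genes known from the fasting liver were mixed. In the list of ketogenesis and fasting-induced genes 8 of 14 were negative and 6 positive, with a median of −0.10 (−0.17 without HMP liver 1) and 3 at an unadjusted p under 0.05, all lower. Acat1, the mitochondrial thiolase of ketone metabolism (chr8:58166990-58195884), had 502, 402 and 448 CPM in the SCS livers and 278, 218 and 257 CPM in the HMP livers, a log2 fold change of −0.84 (standard error 0.187, edgeR adjusted p = 0.0888, and −0.90 without HMP liver 1). Fabp1, the abundant fatty acid carrier of the hepatocyte (chr4:99063181-99066954), had 2353, 2298 and 1695 CPM in the SCS livers and 1271, 1132 and 1185 CPM in the HMP livers, a log2 fold change of −0.82 (standard error 0.195, edgeR adjusted p = 0.103, and −0.85 without HMP liver 1). Both were lower in every HMP liver than in any SCS liver.

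**Figure D3:**
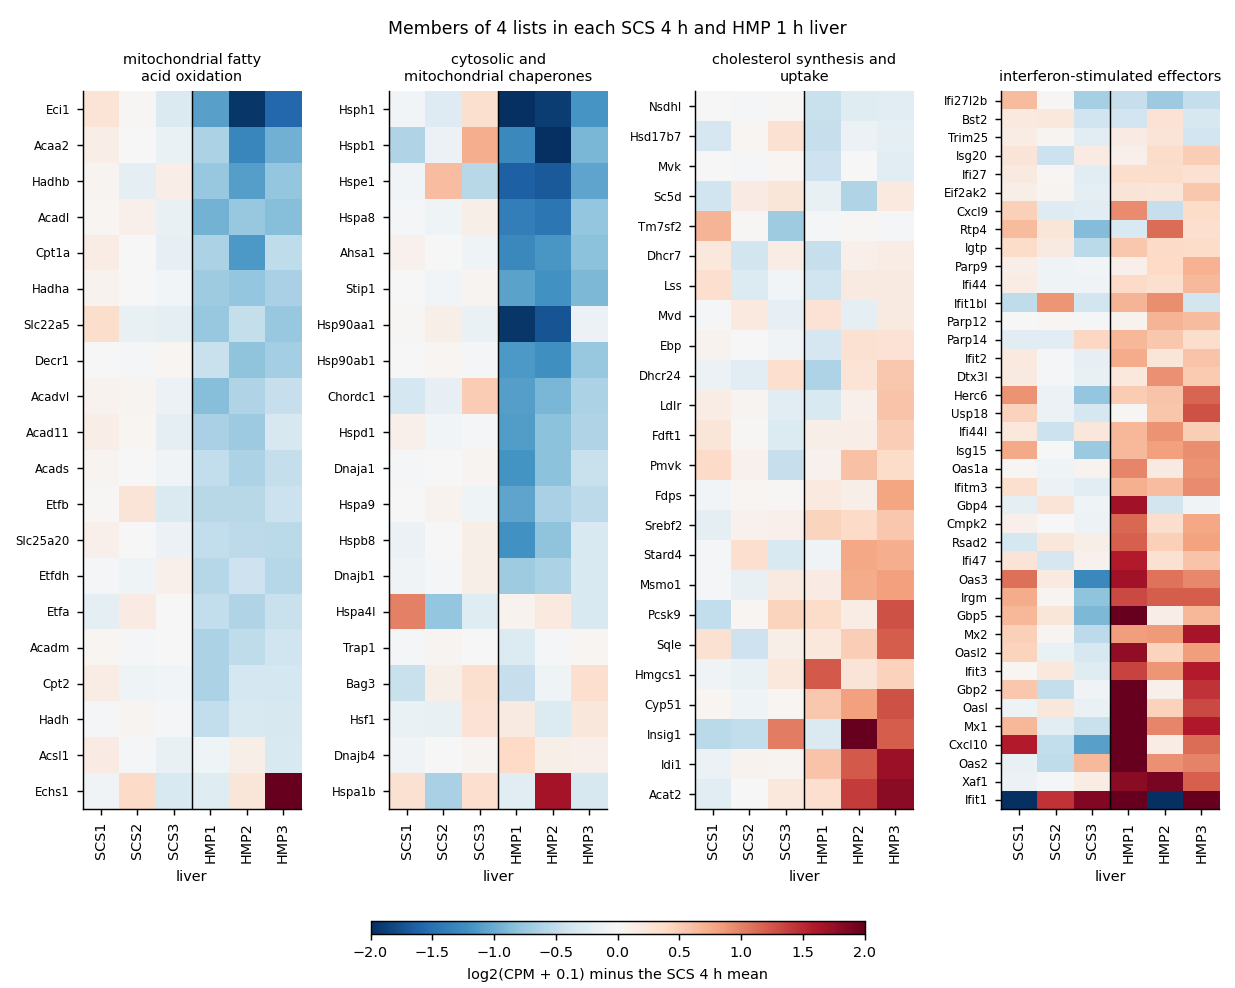
Tested members of 4 gene lists (1 cholesterol gene is not shown) in the 3 SCS 4 h and 3 HMP 1 h livers; colour is log2(CPM + 0.1) minus the mean of the SCS livers, drawn from −2 to 2, and rows are ordered by log2 fold change. Most fatty acid oxidation and chaperone genes are blue (lower) in all 3 HMP livers, and most interferon-stimulated genes are red (higher); 18 of 20 fatty acid oxidation genes lie wholly below the SCS livers.

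Nuclear genes of oxidative phosphorylation (OXPHOS), the subunits of complexes I to V, were also lower, by less per gene but nearly without exception. Of 76 tested gene models 74 were negative (median −0.39), 46 lay wholly below the SCS livers, 51 had an unadjusted p under 0.05 on the lower side and 0 on the higher. EdgeR called 0 of them. DESeq2 called 9 of complex I, 1 of complex II, 2 of complex III, 0 of complex IV and 5 of ATP synthase. When HMP liver 1 was left out, 69 of 76 were negative, with a median of −0.30, and 33 had an unadjusted p under 0.05 on the lower side. For complex IV that count went from 7 to 0. By complex, the medians were −0.40 for complex I (35 genes), −0.25 for II (4), −0.44 for III (10), −0.34 for IV (13) and −0.39 for ATP synthase (14). Ndufb7, a subunit of complex I (chr19:24701049-24705405), had 78.9, 82.5 and 74.8 CPM in the SCS livers and 51.7, 50.8 and 53.4 CPM in the HMP livers, a log2 fold change of −0.60 (standard error 0.1296, edgeR adjusted p = 0.088, and −0.58 without HMP liver 1). Ndufs1, which carries iron-sulfur clusters of complex I (chr9:69919867-69953182), had 139.7, 148 and 145 CPM in the SCS livers and 77.3, 102 and 106 CPM in the HMP livers, a log2 fold change of −0.60 (standard error 0.1505, edgeR adjusted p = 0.113, and −0.45 without HMP liver 1). Ndufb7 was nearly equal among the HMP livers, while for Ndufs1 HMP liver 1 was the lowest. Uqcrfs1, the Rieske subunit of complex III, differed by −0.46 (standard error 0.123, edgeR adjusted p = 0.128, and −0.39 without HMP liver 1). Atp5mc3, a gene of the membrane ring of ATP synthase, differed by −0.60 (standard error 0.143, edgeR adjusted p = 0.1, and −0.50 without HMP liver 1).

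The 13 mRNAs encoded by mitochondrial DNA behaved otherwise, and here HMP liver 1 decided. All 13 were positive with all livers (median 0.86), 4 had an unadjusted p under 0.05 and 1 lay wholly above the SCS livers, while without HMP liver 1 7 were positive and 6 negative, with a median of 0.05. COX3, a catalytic-core subunit of complex IV, had 5481, 6705 and 7662 CPM in the SCS livers and 22662, 7499 and 7646 CPM in the HMP livers. The value of HMP liver 1 was far above the other 5, which overlapped. ND5, the 1 gene whose groups did not overlap, had 1357, 1371 and 2059 CPM in the SCS livers and 5984, 2193 and 2088 CPM in the HMP livers, a log2 fold change of 1.10 (standard error 0.353, edgeR adjusted p = 0.191) and of 0.44 without HMP liver 1.

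In the tricarboxylic acid cycle, which supplies the chain with reduced cofactors, all 15 tested genes were negative (median −0.38, and −0.23 without HMP liver 1), 9 lay wholly below the SCS livers and 9 had an unadjusted p under 0.05 (4 without HMP liver 1). Mdh2, the mitochondrial malate dehydrogenase (chr12:23941448-23954431), had 227, 218 and 237 CPM in the SCS livers and 137, 134 and 161 CPM in the HMP livers, a log2 fold change of −0.66 (standard error 0.144, edgeR adjusted p = 0.088, and −0.60 without HMP liver 1). Its groups did not overlap. Of the complex II subunits, which oxidize succinate, Sdhc had 169, 147 and 171 CPM in the SCS livers and 108, 114 and 131 CPM in the HMP livers and differed by −0.46 (standard error 0.128, edgeR adjusted p = 0.143, and −0.39 without HMP liver 1), whereas Sdha, the catalytic subunit, differed by −0.13 (standard error 0.131, edgeR adjusted p = 0.69, and 0.01 without HMP liver 1) and overlapped.

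Ribosomal protein genes, which are not mitochondrial but share short and abundant mRNAs with many OXPHOS genes, were lower too: 61 of 70 gene models were negative, with a median of −0.20 (−0.18 without HMP liver 1), 21 wholly below and 1 wholly above the SCS livers, and 15 lower and 1 higher at an unadjusted p under 0.05 (9 and 1 without HMP liver 1). Rpl15 had 282, 303 and 251 CPM in the SCS livers and 198, 175 and 204 CPM in the HMP livers, a log2 fold change of −0.54 (standard error 0.137, edgeR adjusted p = 0.12, and −0.54 without HMP liver 1). Its groups did not overlap. A lower median was therefore not confined to mitochondrial genes, and no difference between the lists was tested.

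Cytosolic and mitochondrial chaperones, which fold client proteins and are induced by heat shock, had the lowest median of the functional lists shown. Of 20 tested genes 17 were negative (median −0.81), 13 lay wholly below the SCS livers and 1 wholly above, and 14 had an unadjusted p under 0.05, all lower. DESeq2 called 11, all lower, and without HMP liver 1 the median was −0.65. Hsp90ab1, the constitutive cytosolic Hsp90 (chr9:17817721-17823243), had 1211, 1252 and 1190.1 CPM in the SCS livers and 551, 520.4 and 723 CPM in the HMP livers. This gave a log2 fold change of −1.03 (standard error 0.1796, edgeR adjusted p = 0.065, and −0.95 without HMP liver 1). Ahsa1, the activator of the Hsp90 ATPase (chr6:111296417-111304224), had 107, 99.2 and 94.8 CPM in the SCS livers and 40.9, 44.7 and 56.6 CPM in the HMP livers, a log2 fold change of −1.08 (standard error 0.171, edgeR adjusted p = 0.0611, and −0.97 without HMP liver 1). Stip1, which hands clients from Hsp70 to Hsp90 (chr1:222274133-222293148), had 84.7, 80.7 and 87.1 CPM in the SCS livers and 40.1, 36.5 and 45.3 CPM in the HMP livers, a log2 fold change of −1.05 (standard error 0.184, edgeR adjusted p = 0.065, and −1.02 without HMP liver 1). These 3 partners of 1 folding machine were each lower in every HMP liver than in any SCS liver, and HMP liver 3 was the highest of the 3. Hspa9, the Hsp70 of the mitochondrial matrix (chr18:27731072-27749235), had 393, 407 and 368 CPM in the SCS livers and 187, 247 and 271 CPM in the HMP livers, a log2 fold change of −0.73 (standard error 0.147, edgeR adjusted p = 0.088, and −0.57 without HMP liver 1).

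The promoters of the chaperones were searched for the heat shock element, here the letters GAANNTTCNNGAA on either strand, where N is any base. In RefSeq windows of the GRCr8 build from 250 bases before to 50 after each start, 6 of the 17 list members with a window held it (Chordc1, Dnaja1, Hspa8, Hspd1, Hspe1 and Hsph1), against 0.794% of all 27457 promoters. The windows of Hspa8, the constitutive cytosolic Hsp70, and Hspd1, the matrix chaperonin Hsp60, are shown up to the start since each holds the element more than once (element in capitals, overlapping copies merged; chosen after their values were seen). That of Hspa8 is chr8:50080264-50080513 (plus strand) and that of Hspd1 is chr9:64084038-64084287 (minus strand).
Hspa8: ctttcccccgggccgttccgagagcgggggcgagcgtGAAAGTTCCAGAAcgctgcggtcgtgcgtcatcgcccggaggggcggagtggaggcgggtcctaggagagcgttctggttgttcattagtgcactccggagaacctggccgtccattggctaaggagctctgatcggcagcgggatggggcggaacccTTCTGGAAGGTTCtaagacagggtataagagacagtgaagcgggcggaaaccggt
Hspd1: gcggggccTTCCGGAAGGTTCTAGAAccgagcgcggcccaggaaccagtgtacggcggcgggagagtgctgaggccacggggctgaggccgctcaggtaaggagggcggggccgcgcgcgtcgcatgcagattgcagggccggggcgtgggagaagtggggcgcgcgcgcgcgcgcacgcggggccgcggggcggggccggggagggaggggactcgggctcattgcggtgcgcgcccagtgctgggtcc
Hspa8 had 481, 459 and 531 CPM in the SCS livers and 188, 179 and 285 CPM in the HMP livers, a log2 fold change of −1.18 (standard error 0.272, edgeR adjusted p = 0.0948, and −1.06 without HMP liver 1). Hspd1 had 603, 544 and 546 CPM in the SCS livers and 259, 319 and 372 CPM in the HMP livers, a log2 fold change of −0.83 (standard error 0.181, edgeR adjusted p = 0.088, and −0.69 without HMP liver 1). Both were lower in all 3 HMP livers, and so were Ahsa1 and Stip1, whose windows hold no match. A match describes the letters only, and binding of a factor was not measured. Chaperones were listed as genes induced by heat shock, so the share with the element describes the list and not the perfusion.

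Genes of protein folding in the endoplasmic reticulum (ER), the targets of the unfolded protein response, were lower as well: 21 of 26 were negative (median −0.48, and −0.33 without HMP liver 1), 11 lay wholly below and 2 wholly above the SCS livers, and 14 had an unadjusted p under 0.05 on the lower side and 1 on the higher. DESeq2 called 8 lower and 1 higher. Calr, the calcium-binding lectin chaperone calreticulin (chr19:25956771-25961666), had 777, 752 and 1048 CPM in the SCS livers and 419, 497 and 580.4 CPM in the HMP livers, a log2 fold change of −0.78 (standard error 0.168, edgeR adjusted p = 0.088, and −0.65 without HMP liver 1). Hspa5, the ER Hsp70 also called BiP (chr3:13838304-13842762), had 962, 738 and 938 CPM in the SCS livers and 379, 605 and 562 CPM in the HMP livers, a log2 fold change of −0.77 (standard error 0.194, edgeR adjusted p = 0.113, and −0.57 without HMP liver 1). Manf, a secreted ER stress protein (chr8:115623178-115626380), had 135, 114 and 119 CPM in the SCS livers and 49.99, 71.7 and 81.8 CPM in the HMP livers, a log2 fold change of −0.85 (standard error 0.181, edgeR adjusted p = 0.088, and −0.66 without HMP liver 1). In all 3 genes HMP liver 1 was lowest and the groups did not overlap. Chac1, which degrades glutathione and is a late target of the ATF4 arm, was the opposite, with 3.48, 4.94 and 8.9004 CPM in the SCS livers and 21.3, 31.7 and 16.6 CPM in the HMP livers and a log2 fold change of 2.01 (standard error 0.516, edgeR adjusted p = 0.12, and 2.09 without HMP liver 1). HMP liver 2 was highest for it, and the groups were separate, as its choice by size required.

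The ER stress response element, the letters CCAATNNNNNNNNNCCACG on either strand, was present in the windows of 7 of 21 list members (Calr, Canx, Creld2, Dnajc3, Hsp90b1, Hspa5 and Xbp1) and in 0.0765% of all promoters. The stretches before the starts of Hspa5, chr3:38452766-38453015 (plus strand), and Calr, chr19:40213117-40213366 (plus strand), are shown because both genes were lower in every HMP liver (element in capitals; on the other strand in Calr).
Hspa5: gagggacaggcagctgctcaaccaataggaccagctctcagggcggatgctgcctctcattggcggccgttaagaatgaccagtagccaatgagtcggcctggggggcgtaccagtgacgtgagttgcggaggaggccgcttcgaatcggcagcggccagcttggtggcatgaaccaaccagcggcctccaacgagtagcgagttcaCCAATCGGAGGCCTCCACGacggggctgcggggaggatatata
Calr: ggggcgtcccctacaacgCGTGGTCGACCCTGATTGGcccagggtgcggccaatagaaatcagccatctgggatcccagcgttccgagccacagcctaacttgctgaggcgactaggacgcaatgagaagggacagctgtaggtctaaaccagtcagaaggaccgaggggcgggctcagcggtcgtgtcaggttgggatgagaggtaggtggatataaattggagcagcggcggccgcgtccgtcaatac
The element of Hspa5 lies 43 bases before its start and that of Calr 232 bases before. Chac1, which was higher, held none in its window. Sdf2l1 held none either and was lower in every HMP liver. It had 38.1, 46.4 and 42.5 CPM in the SCS livers and 29.02, 29.3 and 22.3 CPM in the HMP livers. The genes were listed as targets of the unfolded protein response, so the share with the element describes the list and not the perfusion.

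Glycolysis, the pathway that makes ATP without oxygen, was mixed: 11 of 19 genes were negative and 8 positive (median −0.21, and −0.32 without HMP liver 1), 8 lay wholly below and 1 wholly above the SCS livers, and 7 and 1 had an unadjusted p under 0.05. The 4 genes with the lowest unadjusted p, Ldha, Gapdh, Eno1 and Pgk1, encode enzymes of its later steps. Ldha, the muscle-type lactate dehydrogenase subunit that turns pyruvate into lactate (chr1:102900286-102909707), had 2138, 1692 and 1939 CPM in the SCS livers and 1017, 872 and 975 CPM in the HMP livers. On the log2 scale the difference was −1.01 (standard error 0.186, edgeR adjusted p = 0.0681), and −1.04 without HMP liver 1. All 3 HMP livers were far below the lowest SCS liver. Gapdh had 545, 459 and 491 CPM in the SCS livers and 311, 240.4 and 309 CPM in the HMP livers, a log2 fold change of −0.80 (standard error 0.176, edgeR adjusted p = 0.0882, and −0.84 without HMP liver 1). It is often used as a loading reference, and the groups did not overlap. Eno1, enolase, differed by −0.56 (standard error 0.156, edgeR adjusted p = 0.143, and −0.54 without HMP liver 1), and Pgk1, phosphoglycerate kinase, by −0.57 (standard error 0.161, edgeR adjusted p = 0.144, and −0.54 without HMP liver 1).

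Antioxidant genes and targets of the factor Nrf2 were lower in 19 of 27 tested (median −0.23, and −0.24 without HMP liver 1), with 8 wholly below and 0 wholly above the SCS livers and 8 lower and 1 higher at an unadjusted p under 0.05. Gclc, the catalytic subunit of the enzyme that starts glutathione synthesis (chr8:85059051-85097468), had 193, 170.1 and 226 CPM in the SCS livers and 107, 71.9 and 100.01 CPM in the HMP livers, a log2 fold change of −1.08 (standard error 0.218, edgeR adjusted p = 0.088, and −1.17 without HMP liver 1). Prdx1, a peroxiredoxin that reduces hydrogen peroxide (chr5:135536413-135551990), had 501, 535 and 483 CPM in the SCS livers and 283, 319 and 369 CPM in the HMP livers, a log2 fold change of −0.65 (standard error 0.136, edgeR adjusted p = 0.088, and −0.54 without HMP liver 1). HMP liver 2 was lowest for Gclc and HMP liver 1 for Prdx1, and neither pair of groups overlapped. Sod2, the matrix superoxide dismutase, had 136, 138 and 113 CPM in the SCS livers and 91.9, 103 and 103 CPM in the HMP livers and differed by −0.38 (standard error 0.119, edgeR adjusted p = 0.189, and −0.31 without HMP liver 1). Sod1, the cytosolic enzyme, had 591, 598 and 364 CPM in the SCS livers and 312, 453 and 415 CPM in the HMP livers, and its groups overlapped.

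Mitophagy, the removal of damaged mitochondria by autophagy, is a process the study follows. Its 21 tested genes had 17 negative and 4 positive values with a small median (−0.15, and −0.07 without HMP liver 1), 1 of them wholly below the SCS livers and 5 lower at an unadjusted p under 0.05 (2 without HMP liver 1). Bnip3 differed by −0.56 (standard error 0.21, edgeR adjusted p = 0.261, and −0.48 without HMP liver 1). Phb2 differed by −0.47 (standard error 0.151, edgeR adjusted p = 0.196, and −0.42 without HMP liver 1). The groups overlapped for both. Pink1, the kinase that marks depolarized mitochondria, had 268, 313 and 250.4 CPM in the SCS livers and 227, 241 and 268 CPM in the HMP livers and differed by −0.17 (standard error 0.153, edgeR adjusted p = 0.624, and −0.10 without HMP liver 1). Sqstm1, the cargo receptor p62, had 516, 450.2 and 384 CPM in the SCS livers and 318, 319.9 and 407 CPM in the HMP livers and differed by −0.37 (standard error 0.148, edgeR adjusted p = 0.282, and −0.29 without HMP liver 1). Map1lc3b, the autophagosome protein LC3B, had 137, 160.1 and 179.7 CPM in the SCS livers and 106, 155 and 186 CPM in the HMP livers. In these 3 genes the groups overlapped. Of 36 genes of the autophagy machinery 23 were negative and 13 positive, with a median of −0.05 (0.01 without HMP liver 1), and 2 reached an unadjusted p under 0.05 in each direction. Over all tested genes 5.93% were higher and 8.56% lower by that measure, so these counts are no result about the list. Fusion, fission and cristae genes were lower in 16 of 18 (median −0.34, and −0.21 without HMP liver 1), with 9 wholly below the SCS livers. Immt, the core of the complex that shapes cristae junctions (chr4:99753500-99792484), had 118, 109.8 and 111 CPM in the SCS livers and 57.2, 68.3 and 82.7 CPM in the HMP livers, a log2 fold change of −0.70 (standard error 0.153, edgeR adjusted p = 0.088, and −0.56 without HMP liver 1). Chchd6, a subunit of that complex (chr4:121340952-121565212), had 19.7, 23.1 and 15.4 CPM in the SCS livers and 7.598, 6.75 and 8.03 CPM in the HMP livers, a log2 fold change of −1.38 (standard error 0.274, edgeR adjusted p = 0.088, and −1.38 without HMP liver 1). Opa1, the inner membrane fusion GTPase, had 68.6, 67.3 and 63.5 CPM in the SCS livers and 46.8, 52.8 and 56.2 CPM in the HMP livers and differed by −0.36 (standard error 0.113, edgeR adjusted p = 0.191, and −0.27 without HMP liver 1). All 3 were lower in every HMP liver.

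Apoptosis genes gave no such split. Of 24 genes of the Bcl-2 family and of execution 14 were positive and 10 negative (median 0.03, and −0.09 without HMP liver 1). Bax, which permeabilizes the outer mitochondrial membrane, had 14.1, 9.15 and 8.25 CPM in the SCS livers and 11.6, 9.56 and 10.9 CPM in the HMP livers. Its groups overlapped. Cycs, cytochrome c, differed by −0.43 (standard error 0.141, edgeR adjusted p = 0.204, and −0.31 without HMP liver 1) with groups that did not overlap. The gene model named Hmgb1 had 5.66, 5.599 and 5.63 CPM in storage and 4.799, 4.87 and 5.33 CPM after perfusion, but it lies on chromosome 16 in the files and on chromosome 12 in RefSeq (GRCr8), so which copy it measures is uncertain.

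Interferon-stimulated genes, which cells switch on when nucleic acid sensors or interferons signal, were higher in HMP 1 h. Of 39 tested effectors, 37 were positive (median 0.68, against 0.04 for all genes), 20 lay wholly above the SCS livers and 0 wholly below, and 15 had an unadjusted p under 0.05 on the higher side and 1 on the lower. EdgeR called 0 and DESeq2 called 3, all higher. When HMP liver 1 was left out, 35 were positive, with a median of 0.65. The list score was −0.04, −0.24 and −0.47 in the SCS livers and 0.74, 0.18 and 0.53 in the HMP livers. Irgm, an interferon-inducible GTPase of the defence against intracellular microbes (chr10:34213936-34221928), had 16.5, 10.2 and 5.56 CPM in the SCS livers and 24.6, 22.7 and 22.8 CPM in the HMP livers, a log2 fold change of 1.11 (standard error 0.3197, edgeR adjusted p = 0.153, and 1.09 without HMP liver 1). Ifitm3, which blocks viral entry at endosomes (chr1:213810696-213811901), had 47.1, 34.7 and 32.5 CPM in the SCS livers and 61.9, 57.8 and 72.7 CPM in the HMP livers, a log2 fold change of 0.75 (standard error 0.235, edgeR adjusted p = 0.187, and 0.79 without HMP liver 1). Mx1, an antiviral GTPase (chr11:37891156-37914983), had 7.01, 3.79 and 3.21 CPM in the SCS livers and 18.3, 8.74 and 13.6 CPM in the HMP livers, a log2 fold change of 1.53 (standard error 0.456, edgeR adjusted p = 0.17, and 1.27 without HMP liver 1). The groups did not overlap in any of the 3, and HMP liver 1 was the highest for Irgm and Mx1 and HMP liver 3 for Ifitm3.

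Sensors and signal transducers of the pathway were higher in 20 of 24 (median 0.42, and 0.31 without HMP liver 1), 6 of them wholly above the SCS livers and 9 at an unadjusted p under 0.05, with 0 on the lower side of either count. Irf9, a subunit of the ISGF3 factor (chr15:34282936-34288138), had 18.3, 16.5 and 17.3 CPM in the SCS livers and 27.1, 24.1 and 37.8 CPM in the HMP livers, a log2 fold change of 0.77 (standard error 0.2103, edgeR adjusted p = 0.14, and 0.85 without HMP liver 1). Irf7, the factor that amplifies type I interferon (chr1:214248837-214252456), had 23.8, 12.9 and 12.9 CPM in the SCS livers and 49.1, 22.9 and 49.3 CPM in the HMP livers, a log2 fold change of 1.29 (standard error 0.413, edgeR adjusted p = 0.191, and 1.14 without HMP liver 1). HMP liver 2 lay between the SCS livers for Irf7, so its groups overlapped, while those of Irf9 did not. For immunoproteasome and antigen loading genes, 10 of 14 were positive (median 0.33, and 0.40 without HMP liver 1) and 7 lay wholly above the SCS livers, with 5 higher and 1 lower at an unadjusted p under 0.05. Tap1, which pumps peptides into the ER for class I molecules (chr20:3979035-3989669), had 21.5, 12.7 and 16.9 CPM in the SCS livers and 37.9, 31.7 and 39.8 CPM in the HMP livers. The log2 fold change was 1.10 (standard error 0.222, edgeR adjusted p = 0.088), and 1.09 without HMP liver 1. All 3 HMP livers were well above the highest SCS liver. Psmb9, an immunoproteasome subunit encoded beside Tap1 (chr20:3973420-3978845), had 15.9, 11.9 and 9.62 CPM in the SCS livers and 21.3, 22.9 and 19.9 CPM in the HMP livers, a log2 fold change of 0.77 (standard error 0.248, edgeR adjusted p = 0.191, and 0.79 without HMP liver 1).

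An interferon response element, the letters GAAANNGAAA on either strand, was present in the windows of 25 of the 33 effector genes with a window, 7 of 13 antigen loading genes and 3 of 16 sensor genes, against 4.12% of all promoters. The stretches of Irgm, chr10:33742579-33742828 (minus strand), and Tap1, chr20:4668544-4668793 (minus strand), are shown as those of the effector and the antigen loading gene with the lowest unadjusted p (element in capitals; on the other strand in Tap1). Such genes were put on the lists as interferon targets, so the share with the element describes the lists and not the perfusion.
Irgm: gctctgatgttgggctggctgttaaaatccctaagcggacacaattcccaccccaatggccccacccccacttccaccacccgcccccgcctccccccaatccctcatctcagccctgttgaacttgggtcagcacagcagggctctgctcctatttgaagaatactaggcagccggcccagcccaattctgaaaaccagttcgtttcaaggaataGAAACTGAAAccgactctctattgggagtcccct
Tap1: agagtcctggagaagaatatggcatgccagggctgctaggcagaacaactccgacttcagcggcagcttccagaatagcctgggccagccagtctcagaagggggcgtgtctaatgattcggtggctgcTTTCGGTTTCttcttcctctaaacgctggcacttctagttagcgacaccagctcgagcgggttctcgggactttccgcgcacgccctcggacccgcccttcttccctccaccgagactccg
The element of Irgm starts 34 bases before the start and that of Tap1 121 bases before. Mx1, which was also higher in every HMP liver, has no match in its window.

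Danger receptors, cytokines and chemokines were higher in 23 of 27 tested (37 listed, with Ccl20, Il6 and Tnf at 0 counts in all 6 livers), with a median of 0.60, but the median was 0.10 without HMP liver 1. The count at an unadjusted p under 0.05 was 6 higher and 0 lower, and 3 higher and 1 lower without that liver. Il1b had 1.85, 3.13 and 2.23 CPM in the SCS livers and 15.1, 3.19 and 4.34 CPM in the HMP livers, a log2 fold change of 1.65 (standard error 0.589, edgeR adjusted p = 0.232) with all livers and of 0.66 without HMP liver 1. The high value was that of HMP liver 1, in which the macrophage markers were highest as well; their part in the result was not tested. Nfkbia, the NF-κB inhibitor and early target, had 22.3, 29.5 and 32.2 CPM in the SCS livers and 59.2, 59.3 and 42.8 CPM in the HMP livers and differed by 0.94 (standard error 0.355, edgeR adjusted p = 0.261), with 0.89 without HMP liver 1.

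Immediate early genes, the first to be transcribed after a stimulus, were higher in 27 of 31 (median 0.66, and 0.51 without HMP liver 1). Of them 11 lay wholly above the SCS livers and 11 had an unadjusted p under 0.05, with 0 lower on either count, and DESeq2 called 4, all higher. Jund, an AP-1 subunit (chr16:20485029-20486707), had 76.3, 81.6 and 89.4 CPM in the SCS livers and 179, 121 and 137 CPM in the HMP livers, a log2 fold change of 0.82 (standard error 0.178, edgeR adjusted p = 0.088, and 0.66 without HMP liver 1). Myc, a driver of growth and ribosome synthesis (chr7:102586313-102591240), had 8.298, 7.22 and 7.003 CPM in the SCS livers and 19.8, 27.7 and 12.04 CPM in the HMP livers, a log2 fold change of 1.40 (standard error 0.319, edgeR adjusted p = 0.0934, and 1.42 without HMP liver 1). Zfp36, which speeds the decay of cytokine mRNAs (chr1:85380088-85382569), had 96.1, 107 and 185 CPM in the SCS livers and 232, 286 and 209 CPM in the HMP livers, a log2 fold change of 0.90 (standard error 0.257, edgeR adjusted p = 0.148, and 0.95 without HMP liver 1). None of the 3 overlapped between the groups, and HMP liver 1 was highest for Jund only. Shear-responsive endothelial genes, which flow through a vessel is known to induce, were higher in 20 of 21 with all livers (median 0.45) and in 11 of 21 without HMP liver 1 (median 0.01). Vwf, a secreted product of endothelium, had 10.2, 9.27 and 10.7 CPM in the SCS livers and 36.3, 11.7 and 11.3 CPM in the HMP livers, so the higher mean came from HMP liver 1. S1pr1, a receptor that flow activates, had 56.5, 53.8 and 43.7 CPM in the SCS livers and 87.8, 115 and 61.9 CPM in the HMP livers, a log2 fold change of 0.78 (standard error 0.245, edgeR adjusted p = 0.189) and of 0.80 without HMP liver 1. Here HMP liver 2 was the highest and the groups did not overlap.

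Genes of cholesterol synthesis and uptake, targets of the sterol-sensing factor SREBP-2, were higher, and more so without HMP liver 1. With all livers 18 of 25 were positive and 7 negative (median 0.24), 6 lay wholly above and 1 wholly below the SCS livers, and 8 and 1 had an unadjusted p under 0.05. In HMP livers 2 and 3 alone, 20 of 25 were positive with a median of 0.41, and edgeR called 2. Idi1, which isomerizes isopentenyl diphosphate (chr17:57976268-57984036), had 4.77, 5.42 and 5.37 CPM in the SCS livers and 7.71, 12.2 and 17.2 CPM in the HMP livers. The log2 difference, HMP 1 h over SCS 4 h, was 1.26 (standard error 0.286, edgeR adjusted p = 0.0934), and 1.53 (standard error 0.247, edgeR adjusted p = 0.041) without HMP liver 1. Cyp51, the lanosterol demethylase (chr4:27175243-27194018), had 49.004, 44.7 and 48.95 CPM in the SCS livers and 68.7, 84.3 and 115 CPM in the HMP livers. Its log2 fold change was 0.91 (standard error 0.192, edgeR adjusted p = 0.088), and 1.08 (standard error 0.187, edgeR adjusted p = 0.0462) without HMP liver 1. In both, every HMP liver was above every SCS liver and HMP liver 1 was the lowest of the 3. Srebf2, which encodes SREBP-2 itself (chr7:123381077-123438603), had 24.2, 29.6 and 29.8 CPM in the SCS livers and 37.6, 36.3 and 40.5 CPM in the HMP livers, a log2 fold change of 0.45 (standard error 0.126, edgeR adjusted p = 0.143, and 0.48 without HMP liver 1).

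Some lipogenic genes and Cyp7a1 differed among the HMP livers. In fatty acid and triglyceride synthesis 8 of 16 genes were positive (median 0.02), and without HMP liver 1 10 were (median 0.27). Scd, the stearoyl-CoA desaturase, had 3.42, 4.46 and 3.27 CPM in the SCS livers and 3.199, 58.3 and 22.4 CPM in the HMP livers, a log2 fold change of 2.91 (standard error 0.865, edgeR adjusted p = 0.169, and 3.45 without HMP liver 1). Thrsp, a lipogenic gene known to respond to thyroid hormone and carbohydrate, had 21.2, 38.5 and 84.6 CPM in the SCS livers and 20.6, 460.5 and 277 CPM in the HMP livers, a log2 fold change of 2.39 (standard error 0.991, edgeR adjusted p = 0.298, and 2.96 without HMP liver 1). Cyp7a1, the rate-limiting enzyme of bile acid synthesis, had 22.3, 39.7 and 35.5 CPM in the SCS livers and 24.2, 349 and 101 CPM in the HMP livers, a log2 fold change of 2.28 (standard error 0.7898, edgeR adjusted p = 0.222, and 2.81 without HMP liver 1). In all 3 genes HMP liver 1 lay within or below the SCS livers and HMP livers 2 and 3 lay above them, with HMP liver 2 the highest. In the bile acid list 11 of 21 genes were positive and 10 negative (median 0.02, and 0.10 without HMP liver 1), 5 lay wholly below the SCS livers and 0 wholly above, and 5 lower and 1 higher had an unadjusted p under 0.05. Abcg5, a subunit of the canalicular sterol exporter, was lower in every HMP liver, with 70.9, 67.4 and 96.5 CPM in the SCS livers and 43.5, 24.4 and 51.4 CPM in the HMP livers and a log2 fold change of −0.98 (standard error 0.241, edgeR adjusted p = 0.11, and −1.03 without HMP liver 1).

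Secreted proteins of the hepatocyte showed the same dependence on HMP liver 1. So did the hepatocyte markers, which include Fga, with 10 of 15 positive with all livers (median 0.07). Without HMP liver 1, 12 of the 15 hepatocyte markers were positive (median 0.25). For complement and coagulation, 19 of 31 genes were positive with all livers (median 0.10) and 28 of 31 without HMP liver 1 (median 0.30; 12 of them had an unadjusted p under 0.05, and edgeR called 1). C1s, a serine protease of the first complement component (chr4:157143592-157155609), had 372, 452 and 395 CPM in the SCS livers and 491, 880.2 and 901 CPM in the HMP livers. The log2 fold change was 0.90 (standard error 0.242, edgeR adjusted p = 0.134), and 1.15 (standard error 0.202, edgeR adjusted p = 0.0493) without HMP liver 1. C1r, its partner (chr4:157125998-157136829), had 639, 641 and 726 CPM in the SCS livers and 784, 1002 and 1162 CPM in the HMP livers, a log2 fold change of 0.56 (standard error 0.174, edgeR adjusted p = 0.187, and 0.71 without HMP liver 1). In both the groups were separate and HMP liver 1 was the closest to storage. For acute phase proteins and protease inhibitors, 16 of 23 were positive (median 0.19, 5 higher and 1 lower at an unadjusted p under 0.05) and 19 of 23 without HMP liver 1 (median 0.40, 11 higher and 0 lower). Fga, the fibrinogen α chain, had 5217, 3805 and 5585 CPM in the SCS livers and 5947, 8471 and 9533 CPM in the HMP livers, a log2 fold change of 0.71 (standard error 0.237, edgeR adjusted p = 0.206, and 0.91 without HMP liver 1). The 3 HMP livers were above the 3 SCS livers, HMP liver 1 by the least.

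**Figure D4:**
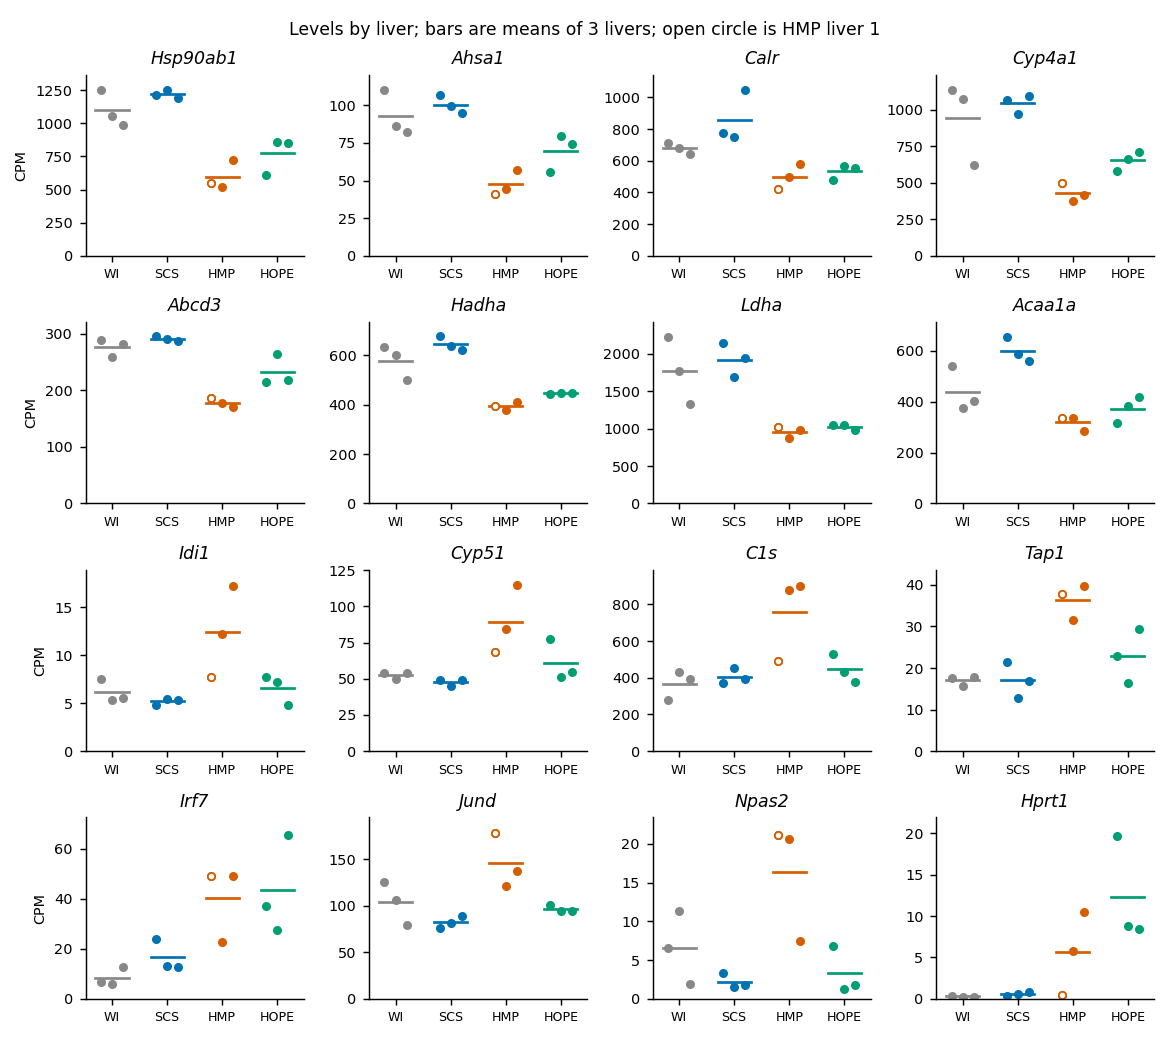
CPM of 16 genes in each of the 12 livers, with group means as bars, a vertical axis from 0 in each panel and HMP liver 1 as an open circle. In the upper 8 panels all HMP points are below all SCS points, and in Idi1, Cyp51, C1s, Tap1, Jund and Npas2 all are above, while Irf7 overlaps and Hprt1 is at the SCS level in HMP liver 1 and higher in HMP livers 2 and 3 and all HOPE livers.

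Clock genes, whose levels follow the time of day, were spread widely among the livers of 1 group, and no source used here gives the hour at which a liver was taken. Of 19 tested genes 7 were positive and 12 negative (median −0.09), and 11 and 8 without HMP liver 1 (median 0.21). Npas2, a partner of Bmal1 that can replace Clock (chr9:45901741-46081880), had 3.31, 1.51 and 1.83 CPM in the SCS livers and 21.1, 20.6 and 7.43 CPM in the HMP livers, a log2 fold change of 2.88 (standard error 0.725, edgeR adjusted p = 0.113, and 2.67 without HMP liver 1). Per2, a repressor that Npas2 and Bmal1 drive (chr9:98555169-98597359), had 8.41, 18.5 and 20.1 CPM in the SCS livers and 2.46, 6.37 and 7.17 CPM in the HMP livers, a log2 fold change of −1.56 (standard error 0.599, edgeR adjusted p = 0.264, and −1.19 without HMP liver 1). Cry1, another repressor, had 3.7005, 3.55 and 3.86 CPM in the SCS livers and 7.598, 6.93 and 5.07 CPM in the HMP livers. In all 3 the groups did not overlap, which for Npas2 was a condition of its choice by size. Whether a difference in the hour of procurement lies behind them was not tested.

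Other differences of large size were found in genes of mixed function. These genes were taken by size among those with groups that did not overlap. They also needed an unadjusted p under 0.05 with the same sign, both with and without HMP liver 1. Separate groups and a kept sign are thus no result for them. Stac3, known as an adaptor of excitation-contraction coupling in muscle (chr7:70807867-70815270), had 1.85, 2.53 and 2.16 CPM in the SCS livers and 12.1, 127 and 92.4 CPM in the HMP livers. The difference on the log2 scale was 5.14 (standard error 1.05, edgeR adjusted p = 0.088), and 5.67 (standard error 0.887, edgeR adjusted p = 0.041) without HMP liver 1. HMP liver 1 was far below the other HMP livers and still above storage, and WI liver 3 had 20.2 CPM. Slc6a6, the taurine transporter (chr4:123642210-123713464), had 6.22, 3.31 and 4.97 CPM in the SCS livers and 22.5, 30.5 and 15.2 CPM in the HMP livers, a log2 fold change of 2.23 (standard error 0.471, edgeR adjusted p = 0.088, and 2.26 without HMP liver 1). Aspa, which cleaves N-acetylaspartate (chr10:59839852-59892960), had 2.13, 1.204 and 0.785 CPM in the SCS livers and 5.598, 4.62 and 6.45 CPM in the HMP livers, a log2 fold change of 2.002 (standard error 0.377, edgeR adjusted p = 0.0773, and 2.01 without HMP liver 1). Cib2, a calcium- and integrin-binding protein, was higher by 3.18 on the log2 scale (standard error 0.830, edgeR adjusted p = 0.125). It had 1.12, 1.63 and 1.31 CPM in the SCS livers and 18.2, 2.06 and 16.6 CPM in the HMP livers. Adam11 was higher by 2.18 (standard error 0.567, edgeR adjusted p = 0.124). The protease inhibitor A2m was higher by 1.70 (standard error 0.677, edgeR adjusted p = 0.279). It had 3.70, 1.93 and 4.45 CPM in the SCS livers and 5.66, 22.0 and 5.13 CPM in the HMP livers. The gene models AABR07060872.1 and LOC100910979 were higher by 1.73 and 1.72.

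On the lower side, Tex49 (chr7:140248852-140270340) had 4.09, 6.86 and 4.65 CPM in the SCS livers and 0.7998, 0.687 and 1.18 CPM in the HMP livers, a log2 fold change of −2.54 (standard error 0.396, edgeR adjusted p = 0.0611, and −2.45 without HMP liver 1). Krt23, a keratin, had 3.87, 3.85 and 7.59 CPM in the SCS livers and 1.94, 1.44 and 0.395 CPM in the HMP livers, a log2 fold change of −2.001 (standard error 0.542, edgeR adjusted p = 0.135, and −2.44 without HMP liver 1). Gsta3, a glutathione S-transferase with close copies, had 16.1, 26.8 and 5.43 CPM in the SCS livers and 1.94, 4.31 and 2.63 CPM in the HMP livers, a log2 fold change of −2.44 (standard error 0.694, edgeR adjusted p = 0.148, and −2.20 without HMP liver 1). The HMP livers were below the SCS livers in each, as the choice required, and for Gsta3 the SCS livers were themselves far apart. The gene models named Fam50a and Ewsr1 differed by −3.88 and −3.32, but both lie on chromosome 4 in the files and on chromosomes X and 14 in RefSeq (GRCr8), so their identity is uncertain. LOC680491 and AC095947.1 differed by −1.85 and −1.83. Among the genes called only without HMP liver 1, several had that liver at the storage level. Hprt1, of purine salvage (chrX:158197149-158228749), had 0.2803, 0.542 and 0.785 CPM in the SCS livers and 0.457, 5.81 and 10.5 CPM in the HMP livers, Upb1, of pyrimidine breakdown (chr20:14167586-14193690), had 139, 133 and 158 CPM in the SCS livers and 143, 369.8 and 346 CPM in the HMP livers, and Slc30a3, a zinc transporter (chr6:26642783-26650105), had 10.5, 8.73 and 11.2 CPM in the SCS livers and 11.3, 0.999 and 1.91 CPM in the HMP livers. For these 3 genes, chosen after their values were seen, the difference was that of HMP livers 2 and 3.

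**Figure D5:**
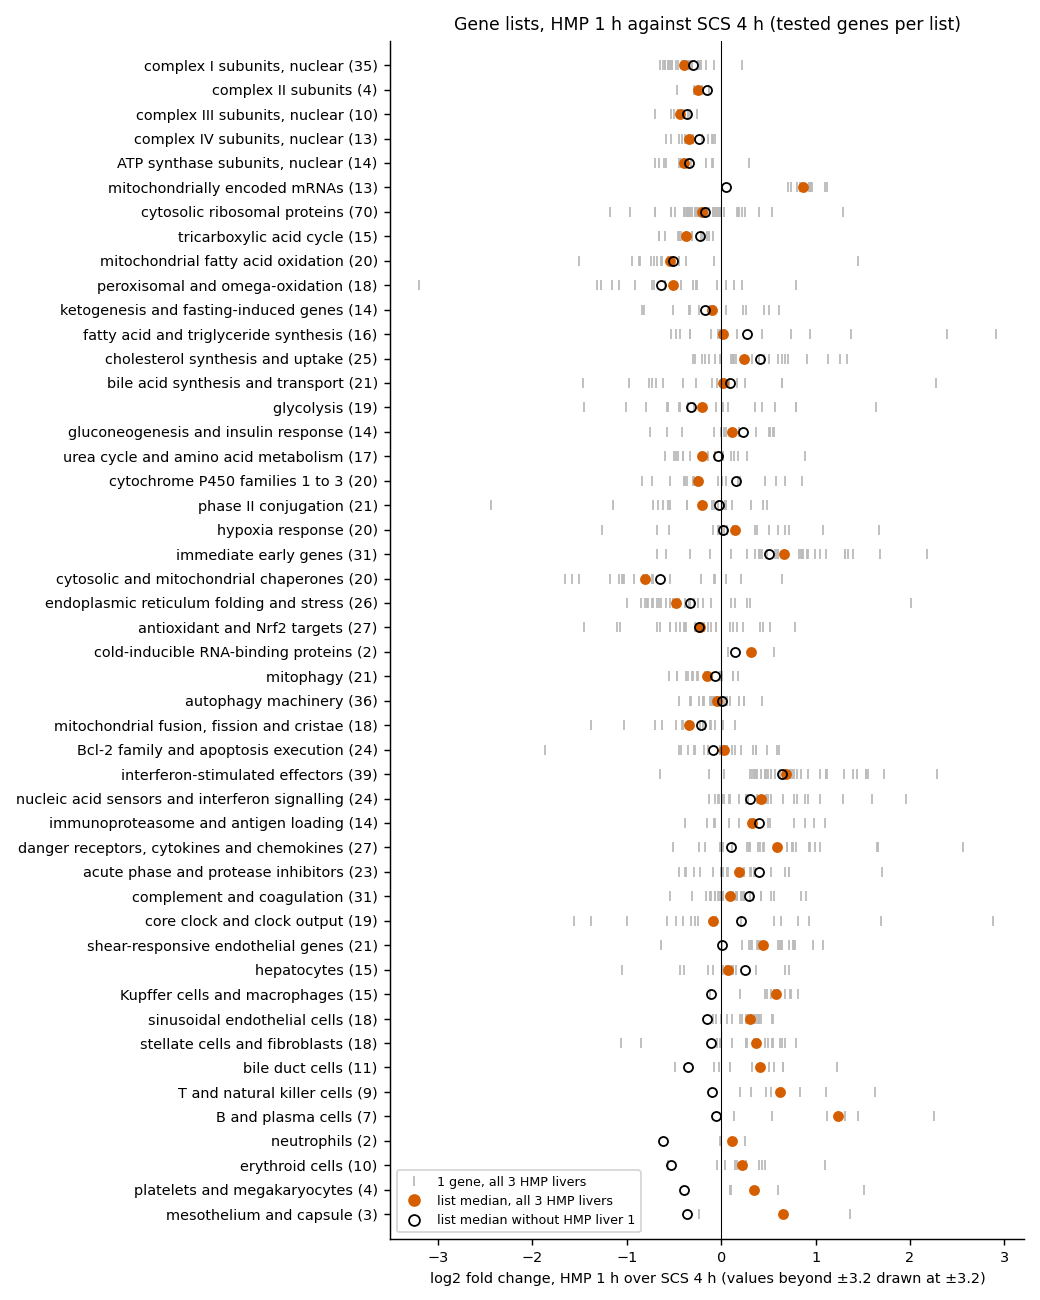
Log2 fold change of HMP 1 h over SCS 4 h for every tested gene of each list (grey ticks), with the list median over all 3 HMP livers (filled) and without HMP liver 1 (open); the number of tested genes is in brackets. Oxidation, OXPHOS and chaperone lists lie left of 0 in both, interferon and immediate early lists lie right of 0 in both, and the cell type lists below the hepatocytes move from above 0 to below 0 when HMP liver 1 is left out.

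Marker lists of the other cell types followed HMP liver 1. The medians were 0.58 for Kupffer cells and macrophages, 0.30 for sinusoidal endothelial cells, 0.36 for stellate cells and fibroblasts, 0.41 for bile duct cells, 0.62 for T and natural killer cells and 1.24 for B and plasma cells. In HMP livers 2 and 3 alone they were −0.11, −0.15, −0.11, −0.35, −0.10 and −0.05, and 1 of 15 macrophage markers was then positive. Clec4f, a lectin of Kupffer cells, had 185, 199.9 and 177 CPM in the SCS livers and 459, 167 and 185 CPM in the HMP livers. The other 5 livers overlapped. Erythroid markers summed to 579 to 1822 CPM in SCS 4 h and 269 to 2611 CPM in HMP 1 h, against 3476 to 4696 CPM in WI 30 min. Hbb, β globin, had 152, 607 and 505 CPM in the SCS livers and 761, 74.96 and 467 CPM in the HMP livers, so both groups ranged over several times. The scores of the T cell, B cell and interferon effector lists were all highest in HMP liver 1 of the 6 livers, and the part of these cells in the interferon result was not tested, while the interferon median was 0.65 without that liver.

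The livers perfused with oxygen share the SCS 4 h livers with this comparison, so the values are given side by side and their likeness is no result. The medians of HMP 1 h and of HOPE 1 h over SCS 4 h were −0.55 and −0.49 for mitochondrial fatty acid oxidation, −0.39 and −0.45 for nuclear OXPHOS, −0.81 and −0.36 for chaperones, −0.48 and −0.25 for ER folding, 0.68 and 0.56 for interferon effectors, 0.66 and 0.38 for immediate early genes and 0.24 and 0.04 for cholesterol synthesis. The direct comparison of HOPE 1 h with HMP 1 h called 0 genes in edgeR, with 1024 at an unadjusted p under 0.05. Hsp90ab1 had 611, 858 and 847 CPM in the HOPE livers, and the log2 difference from HMP 1 h was 0.37 (standard error 0.178, edgeR adjusted p = 0.68). Cyp4a1 had 582, 663 and 714 CPM in the HOPE livers, and the log2 difference from HMP 1 h was 0.60 (standard error 0.2098, edgeR adjusted p = 0.57). C1s had 529, 431 and 376 CPM in the HOPE livers, and the log2 difference from HMP 1 h was −0.77 (standard error 0.241, edgeR adjusted p = 0.558). The HOPE livers lay between both groups in Cyp4a1, overlapped HMP 1 h in Hsp90ab1 and overlapped both groups in C1s, and none of the 3 differences between the perfusions passed the test.

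Against livers with warm ischemia only, HMP 1 h had medians of −0.51 for mitochondrial fatty acid oxidation, −0.77 for chaperones, 1.08 for interferon effectors and −0.08 for nuclear OXPHOS, and SCS 4 h had 0.08, 0.11, 0.35 and 0.28. Both comparisons called 0 genes in edgeR, with 1894 and 653 at an unadjusted p under 0.05. These sets of values share the WI livers. By these medians HMP 1 h was below both groups for fatty acid oxidation and chaperones, while for nuclear OXPHOS SCS 4 h was above both. Hadha had 633, 602 and 500.2 CPM in the WI livers, and the log2 difference of HMP 1 h from WI 30 min was −0.55 (standard error 0.122, edgeR adjusted p = 0.0994). Tap1 had 17.6, 15.7 and 17.8 CPM there, and the log2 difference of HMP 1 h from WI 30 min was 1.10 (standard error 0.222, edgeR adjusted p = 0.0921). All WI livers lay above all HMP livers in Hadha and below them in Tap1.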

How the data were processed

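RNA of whole liver tissue was sequenced from 12 rats, 1 library a liver, 3 livers a group. The authors aligned reads with Hisat2 and assembled with StringTie on Rnor_6.0, per the labels and the study's methods, and deposited counts per gene. These were taken to be raw read counts. FPKM values per gene, which the authors deposited beside the counts, were not used. Which tool counted the reads, and whether by strand, is not stated in the sources used here. From 33744 genes (861 without a symbol, kept in the fits), 13687 passed edgeR's filterByExpr. Counts were scaled by TMM and fitted with edgeR 4.0.16 (quasi-likelihood, R 4.3.3) over all 12 livers, and HMP 1 h was contrasted with SCS 4 h, with Benjamini-Hochberg adjustment and calls at 0.05. The test was checked on simulated data. Alternatives were DESeq2 1.42.0, other scalings and filters, 6 livers only, a replicate block and each liver left out. The members and lists were chosen with earlier results of these data known. Up to 4 genes a list were named, those with the lowest unadjusted p (markers: the highest CPM). Others were named by size of log2 fold change. These needed groups that did not overlap and an unadjusted p under 0.05 with the same sign, both with and without HMP liver 1. Their separate groups and their sign without that liver were thus fixed by the choice and are no check. Genes the study follows (such as Pink1, Bax, Sod1, Map1lc3b and Hmgb1) were also named. A few others, Acot4 among them, were chosen after their values were seen. CPM are counts relative to the TMM-scaled library total. The labels give 1 library to each liver; replicate numbers did not pair livers (Pearson's r of deviations 0.0732, 0.00498 and 0.0523 for numbers 1 to 3). Promoters are RefSeq GRCr8, and 191 of 202 named genes matched RefSeq by symbol. Some named genes are not reported here.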

Additional observations from a re-analysis of the deposited data

How the results depend on the processing

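EdgeR called 0 genes with all livers under TMM or RLE scaling, without mitochondrial genes and with the 6 livers alone. It called 22 with total counts only and 19 with no filter on low counts, and DESeq2 called 438. Leaving out 1 liver gave 0 to 36 calls: 36 without HMP liver 1, 8 without HMP liver 3, 1 without SCS liver 2 and 0 without each of the others. Without HMP liver 1, the 5 livers alone gave 30 calls and DESeq2 381 (chosen after seeing the data), 237 of them shared with its 438. A replicate block gave 0 calls and 1867 genes at an unadjusted p under 0.05, against 1983 without the block; livers with the same number share only that number. The mean difference in the mitochondrial share, 4.14 percentage points, ranged from −0.402 (without HMP liver 1) to 6.54 over the livers left out. Of 202 named genes under all alternatives, 2818 of 3026 values kept their side of the threshold, 187 passed it and 21 changed sign by more than the standard errors of both fits; 100 changed sign at all, 72 of them without HMP liver 1. The 21 were markers of other cell types without HMP liver 1: Cd5l −0.46 (−0.47 with 5 livers, −0.46 in DESeq2), Cd4 −0.36, Cd22 −0.35 and Itgb3 −0.32 in all 3 fits, Hba-a1 −0.70 (−0.71 with 5 livers, −0.70 in DESeq2), Itga2b −0.47 (−0.48 with 5 livers and in DESeq2), Hba-a2 −0.58 in the 12-liver model, and Cd74 −0.26 and Kdr −0.15 with 5 livers. The highest values of these genes with another liver left out were 0.82 for Cd5l, 0.88 for Cd4, 0.91 for Cd22, 0.34 for Itgb3, 0.63 for Hba-a1, 0.36 for Itga2b and 0.75 for Hba-a2. The cause was not tested. Of 719 list medians 47 moved by more than the replicate spread, 12 of them without HMP liver 1. The median SD of a gene between livers of a group was 0.292 on the log2 CPM scale, and p-values rest on 3 livers a group.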

Other observations

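Cytochrome P450 genes of families 1 to 3 had 12 of 20 lower and 8 higher with all livers (median −0.24), and 9 lower and 11 higher without HMP liver 1 (median 0.15). At an unadjusted p under 0.05, 1 was higher and 2 were lower with all livers. For the lists of this section, the shares over all tested genes were 5.93% higher and 8.56% lower. Wholly above and wholly below the SCS livers were 7.29% and 10.6% of all tested genes. Counts near these shares are no result about a list. Cyp2c11, a male-specific steroid hydroxylase, had 367, 358 and 703 CPM in the SCS livers and 439, 575 and 1565 CPM in the HMP livers. Phase II conjugation genes had 14 of 21 lower (median −0.20, and −0.03 without HMP liver 1), with 5 wholly below the SCS livers and 4 lower and 0 higher at an unadjusted p under 0.05. Urea cycle and amino acid genes had 11 of 17 lower (median −0.20, and −0.04 without HMP liver 1), with 2 lower and 1 higher at an unadjusted p under 0.05, and Got2, the mitochondrial aspartate aminotransferase, had 598, 583 and 633 CPM in the SCS livers and 428, 449 and 494 CPM in the HMP livers, a log2 fold change of −0.40 (standard error 0.125, edgeR adjusted p = 0.183, and −0.34 without HMP liver 1). Gluconeogenesis and insulin response genes had 9 of 14 above 0 (median 0.12, and 0.23 without HMP liver 1), but 0 higher and 3 lower had an unadjusted p under 0.05, with 1 wholly above and 2 wholly below the SCS livers. Fbp1, fructose-1,6-bisphosphatase, had 1013, 1075 and 843 CPM in the SCS livers and 497, 679 and 785 CPM in the HMP livers, a log2 fold change of −0.58 (standard error 0.183, edgeR adjusted p = 0.189, and −0.40 without HMP liver 1).

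Hypoxia response genes had 14 of 20 higher (median 0.14, and 0.01 without HMP liver 1), with 2 higher and 3 lower at an unadjusted p under 0.05. Ddit4, a hypoxia-induced inhibitor of mTORC1, had 1.51, 2.53 and 4.25 CPM in the SCS livers and 7.598, 11.9 and 6.97 CPM in the HMP livers, a log2 fold change of 1.68 (standard error 0.519, edgeR adjusted p = 0.18, and 1.79 without HMP liver 1). Higd1a, a mitochondrial hypoxia-inducible protein, had 30.1, 34.1 and 21.5 CPM in the SCS livers and 12.9, 17.1 and 23.6 CPM in the HMP livers, a log2 fold change of −0.68 (standard error 0.223, edgeR adjusted p = 0.202, and −0.47 without HMP liver 1). The cold-inducible RNA-binding proteins were measured by 2 genes: Cirbp had 11.6, 12.04 and 6.22 CPM in the SCS livers and 18.7, 14.2 and 11.1 CPM in the HMP livers and Rbm3 had 23.2, 27.1 and 13.4 CPM in the SCS livers and 26.8, 20.1 and 19.9 CPM in the HMP livers, and neither had an unadjusted p under 0.05.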
